A study of Drosophila melanogaster with 5 samples.

Results

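The neighbouring genes InR and E2f1 lie on chromosome arm 3R of Drosophila melanogaster, and the interval described here is dm3 3R from 17390001 to 17500000, a length of 110 kb. Its members are all peaks of the 3 deposited peak lists that overlap it: 34 of 11679 Yorkie (Yki) peaks, 12 of 2557 Scalloped (Sd) peaks and 16 of 10105 RNA polymerase II (Pol II) peaks, or 62 of 24341 in all. The interval was selected on the number of Yki peaks per window and with the Sd and Pol II counts known, so counts and densities within it are given as a description and were not tested.

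Each list came from 1 chromatin immunoprecipitation sequencing (ChIP-seq) library, made from pooled eye imaginal discs of third-instar larvae. The Yki and Sd libraries came from discs of the genotype GMR-Gal4; UAS-Drosophila Yki S168A, in which the alanine removes a phosphorylation site used by the Hippo pathway to restrain Yki. The Pol II library came from GMR-Gal4; UAS-Drosophila Yki-V5 discs. Both genotypes carried the driver and an extra Yki gene, and the labels describe ectopic cell proliferation in both; discs without added Yki were not analysed here. GMR-Gal4 drives expression in the posterior part of the eye disc, while the chromatin was taken from whole discs. Antibody and genotype changed together between Pol II and the other lists, so their parts cannot be told apart. Fixation was with 2% formaldehyde over 30 minutes. About 300 discs and 10 µg of antibody went into an immunoprecipitation. The lists hold no expression values, so the tissue label could not be checked against marker genes.

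InR encodes the Drosophila insulin receptor, a tyrosine kinase that carries nutrient-dependent growth signals into the cell. E2f1 encodes the activating E2F transcription factor, which drives genes of DNA replication and of entry into S phase and is held in check by Rbf, the fly retinoblastoma protein. Yki is the coactivator that the Hippo pathway controls, and Sd is the TEAD-family protein through which it can bind DNA. Both genes thus stand for processes, growth and cell division, that Yki is known to promote. Pol II peaks mark sites where the polymerase was recovered, at paused or transcribed genes.

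The gene table that was available is on Release 6 of the genome, whereas the peaks are on dm3. In that table no gene lies between InR (CG18402) and E2f1 (CG6376). The long noncoding RNA lncRNA:Irar lies inside InR, and the microRNA genes mir-11 and mir-998 lie inside E2f1. The nearest protein-coding genes are CG15498 on the InR side and Archease on the E2f1 side. Because the builds differ, peaks were not assigned to a gene, an exon or an intron, and each is given by its position and by its distance from the first base of the interval.

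Peaks occupied 23.5 kb of the interval, or 21.4% of its length, at 39 separate sites. Of these sites 18 had called peaks of Yki alone, 7 of Yki and Pol II, 6 of Yki and Sd, 5 of Pol II alone and 3 of all 3 lists. No site had an Sd peak without a Yki peak. Sites merge calls from separate libraries, so neither joint binding nor the absence of a protein was shown. The first 15.9 kb of the interval held no peak of any list. All of the 62 peaks therefore lay between 17405863 and 17497905. The score given with peaks below is the value that the authors' peak caller assigned. It ranks peaks within 1 list and is not compared between lists.

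**Figure D1:**
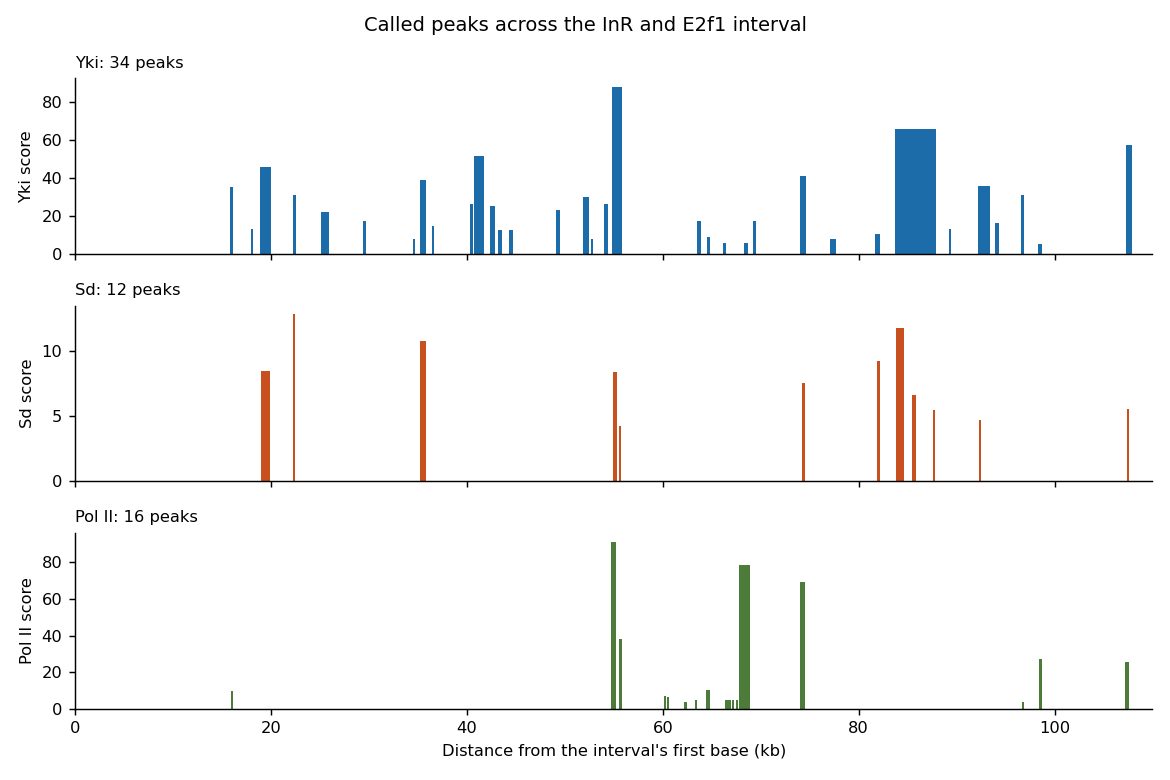
Peaks of the 3 lists across the interval, with distance from its first base in kb on the horizontal axis and the authors' peak score on each vertical axis (separate scales; peaks narrower than 0.25 kb are drawn at that width). The 34 Yki peaks spread over most of the interval, a Pol II-free stretch of 38.6 kb lies on the left, and the 9 Pol II peaks between 60 and 70 kb fall where no Sd peak was called.

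Yki peaks were the most numerous members. Their density was 309 peaks per Mb, against 94.0 per Mb on the rest of 3R, a ratio of 3.29. They covered 18.7% of the interval and 4.64% of the rest of the arm. For Sd the density was 109 peaks per Mb against 19.9, a ratio of 5.47, and the covered share was 4.58% against 0.596%. Pol II departed less from the arm, with 145 peaks per Mb against 84.3, a ratio of 1.73. Its covered share was 5.69% in the interval and 5.30% on the rest of 3R, and its median peak width was 325.5 bp against 412 bp.

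To set these counts beside other places, 3R was divided into 253 windows of the same length, laid out from the interval in both directions. With its 34 Yki peaks the interval ranked 1 of 253, and the other windows had a median of 10 Yki peaks (quartiles 6 and 15, highest 32). With its 12 Sd peaks it also ranked 1, against a median of 2 in the other windows (quartiles 1 and 3, highest 10). With 16 Pol II peaks it ranked 39, a count shared by 9 windows in all, against a median of 8 (quartiles 3 and 14, highest 34). The count of Yki peaks was thus 3.4 times the median of the other windows, that of Sd 6 times and that of Pol II 2 times. By bases covered rather than peaks, the interval ranked 2 for Yki with 20553 bp, 1 for Sd with 5035 bp and 98 for Pol II with 6259 bp. Windows are not replicates, and the interval was picked for its counts, so these ranks carry no p-value.

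**Figure D2:**
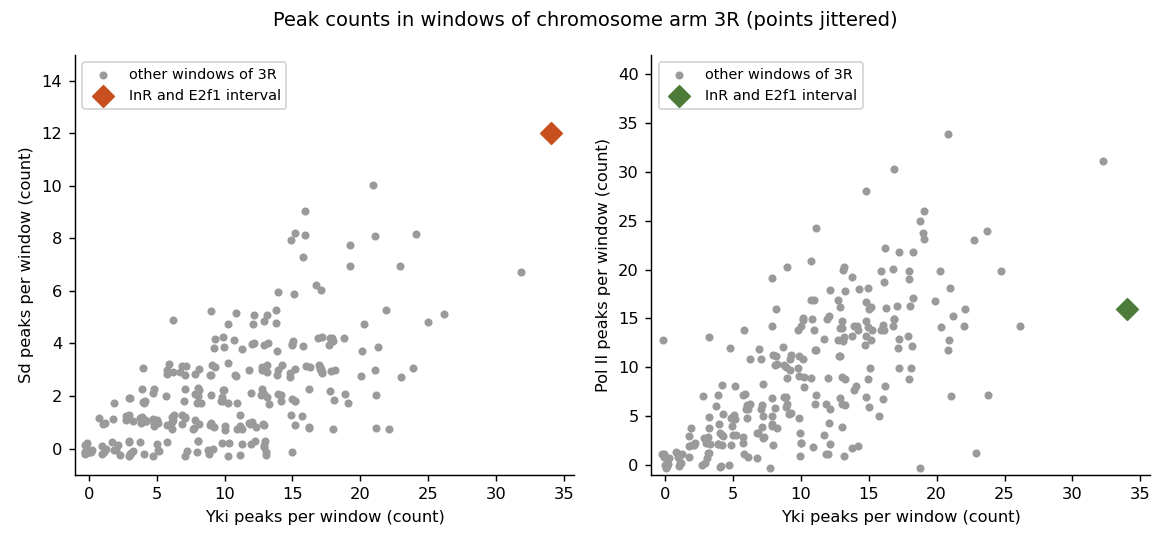
Number of Sd peaks (left) and Pol II peaks (right) against the number of Yki peaks in each of 253 windows of 3R, with the interval as a diamond and points jittered so that equal counts can be seen. The interval lies at the far end of both the Yki and the Sd axes, with 34 and 12 peaks, while 38 windows held more than its 16 Pol II peaks.

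The 4 other windows with the most Yki peaks had higher shares of Yki peaks on Pol II than the interval. The window from 12000001 to 12110000 held 32 Yki, 7 Sd and 31 Pol II peaks, and 65.6% of its Yki peaks overlapped Pol II. The window from 23000001 to 23110000 held 26 Yki, 5 Sd and 14 Pol II peaks, with 46.2% of Yki peaks on Pol II. The window from 21790001 to 21900000 held 25, 5 and 20, with 72.0%. The window from 3750001 to 3860000 held 24, 8 and 24, with 79.2%. In the InR and E2f1 interval the share was 29.4%. A window from 9800001 to 9910000 tied with the last at 24 Yki peaks and had a lower share than the interval, 25.0%. These differences were not tested.

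Of the 34 Yki peaks, 10 overlapped a Pol II peak, which is 29.4% (exact Clopper-Pearson 95% interval 15.1 to 47.5). Over the whole Yki list the share was 54.3%, and on the rest of 3R 55.9% (53.9 to 57.8). An Sd peak lay on 9 of the 34, or 26.5% (12.9 to 44.4), beside 20.1% over the whole list and 19.2% on the rest of 3R (17.7 to 20.8), so the Sd share was close to its background. Both Sd and Pol II overlapped 3 Yki peaks, or 8.82%, against 9.38% over the whole list. Neither was called at 18, or 52.9%, against 35.0% over the whole list. These intervals treat peaks as independent and cover counting error only. Among the 18 other windows of 3R with at least 20 Yki peaks, a limit set after the counts were seen, 15 had a higher Pol II share than the interval and 3 had a higher Sd share. Their Pol II shares ran from 0 to 85.7% with a median of 52.3%, and their Sd shares from 4.55 to 38.1% with a median of 19.1%.

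All 12 Sd peaks of the interval overlapped a Yki peak, or 100% (73.5 to 100), beside 97.7% over the whole Sd list. With 3 counts taken as the limit that a count of 0 allows, a rougher rule than the exact interval, 0 of 12 allows a share without Yki of up to 25.0%. Pol II overlapped 4 of the 12, or 33.3% (9.92 to 65.1), against 39.8% over the whole list. In 11 of 12 pairs the Sd peak lay wholly within its Yki peak, or 91.7%, beside 91.4% over the whole Sd list, and in the remaining pair 95.9% of it did. Since 1 Yki peak held 3 Sd peaks and another held 2, the 12 Sd peaks represent 9 Yki regions. Of the 16 Pol II peaks, 11 overlapped Yki, or 68.8% (41.3 to 89.0), against 63.3% over the whole list. An Sd peak lay on 4 of them, or 25.0% (7.27 to 52.4), against 9.90% over the whole list. Since 2 of these 4 Pol II peaks lay on the same Yki peak, they represent 3 sites.

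From left to right, the first members were a Yki peak from 17405863 to 17406165 with a score of 35.3 and the first Pol II peak, from 17405910 to 17406124, with a score of 9.59. No further Pol II peak was called until 17444687. The Pol II-free stretch between them, 38.6 kb long, held 17 of the 34 Yki peaks and 3 of the 12 Sd peaks. Yki scores there ran from 7.77 to 51.6 with a median of 23.3, and 10 of the 17 lay above the median of the whole Yki list. Of 2356 stretches between neighbouring Pol II peaks on 3R, this one ranked 183 by length and 3 by Yki peaks, a rank shared by 2 stretches. The 183 stretches at least as long held a median of 2 Yki peaks. The stretch was singled out after its values were seen.

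Within that stretch the 3 Sd peaks sat in its left part. The Sd peak from 17408971 to 17409919 was the widest of the interval at 949 bp, had a score of 8.46 and filled most of a Yki peak of 1084 bp with a score of 45.8. The Sd peak from 17412215 to 17412502 had the highest Sd score of the interval, 12.8, and ranked 158 of 2557 in its list. Its Yki peak, from 17412215 to 17412526, shared its first base, was 312 bp wide and had a score of 30.9, at rank 3628 of 11679. The Sd peak from 17425247 to 17425816 had a score of 10.8, and its centre was 1 bp from that of a Yki peak of 660 bp with a score of 39.1. The highest Sd score of the interval thus fell on a Yki peak of moderate rank.

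The right part of the stretch held Yki without Sd. Between 17425817 and 17444883, over 19.1 kb, 10 Yki peaks lay wholly clear of any Sd peak. Over the whole list 9334 of 11679 Yki peaks had no Sd peak. Of 565 stretches between neighbouring Sd peaks on 3R, this one ranked 313 by length. By Yki peaks it ranked 48, a rank shared by 13 stretches. The highest of the 10 Yki peaks ran from 17430773 to 17431726 and was 954 bp wide. Its score was 51.6, the fourth highest Yki score of the interval and rank 1072 in the whole list. Its left neighbour, from 17430275 to 17430665, was 107 bp away, the smallest gap between Yki members. The nearest Sd peak was 4956 bp from the 954 bp peak and the nearest Pol II peak 12960 bp. A count of no Sd peak means that none was called, not that Sd was shown to be absent. The narrowest Yki peak, 200 bp wide with a score of 7.77, lay from 17442629 to 17442828.

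The Pol II-free stretch ended at the highest-scoring Yki peak of the interval. This peak ran from 17444809 to 17445847, was 1039 bp wide and had a score of 88.0, rank 109 of 11679. It held a pair of Sd peaks, from 17444884 to 17445358 with a score of 8.39 and from 17445511 to 17445769 with a score of 4.24, the lowest Sd score of the interval. It also overlapped the Pol II peak with the highest score of the interval, 91.3, from 17444687 to 17445252, and a second Pol II peak from 17445511 to 17445889 with a score of 38.0. The right Sd peak and the right Pol II peak began at the same base. The Yki peak ranked in the top 1% of its list, at percentile 99.1, while the Pol II peak of 91.3 stood at percentile 83.8 and the 2 Sd peaks at 67.2 and 16.9 in theirs.

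**Figure D3:**
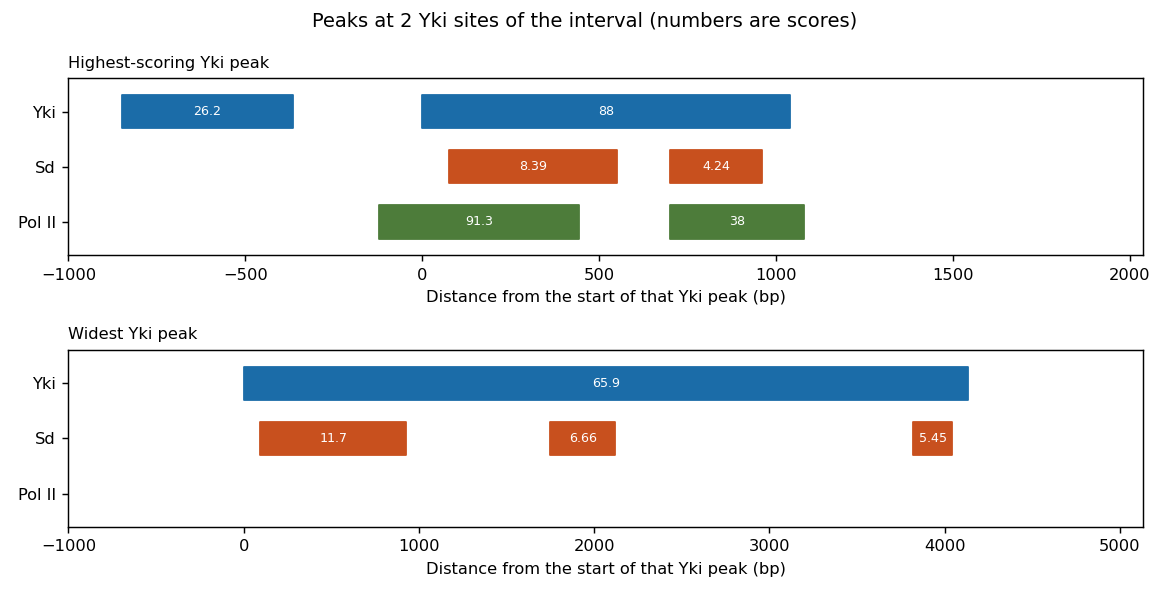
Peaks at the highest-scoring Yki peak (top) and at the widest Yki peak (bottom), with distance in bp from the start of that Yki peak on the horizontal axis and the score of each peak printed on its bar. The top site combines 1 Yki, 2 Sd and 2 Pol II peaks, and the 4133 bp Yki peak at the bottom holds 3 Sd peaks and no Pol II peak.

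To the right of this site lay the densest Pol II of the interval. Between 60 and 70 kb from the first base 9 Pol II peaks were called beside 5 Yki peaks and no Sd peak. The widest, from 17457773 to 17458916, measured 1144 bp and had a score of 78.3. The other 8 had scores between 3.84 and 10.1. Among these the peak from 17454462 to 17454833 had the score of 10.1, and the peaks from 17450088 to 17450379 and from 17450432 to 17450631 had scores of 6.80 and 6.35. The last of these was the narrowest Pol II peak, at 200 bp. Of the 9 Pol II peaks, 4 overlapped a Yki peak, beside 63.3% over the whole Pol II list. Those 4 Yki peaks had low scores, between 5.55 and 17.2, and on the 78.3 Pol II peak the Yki score was 5.70, rank 11283 of 11679. A high Pol II score therefore went with a low Yki score at this site and with a high one at the site before it. Of all 16 Pol II members, 10 stood in the lowest 25% of the Pol II list by score and 0 in the highest 10%.

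The next site had a peak in all 3 lists. The Yki peak from 17463997 to 17464623 had a score of 41.2, the Sd peak from 17464182 to 17464509 a score of 7.52, and the Pol II peak from 17463966 to 17464547 a score of 69.3. The Yki and Sd centres were 35.5 bp apart. The nearest other Yki peaks were 4453 bp to the left of this Yki peak and 2495 bp to its right. Gaps between Yki members had a median of 1585 bp (quartiles 600 and 2710).

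A second Pol II-free stretch followed, from 17464548 to 17486633, 22.1 kb long. It held 6 Yki peaks and 5 Sd peaks, and 3 of the 6 Yki peaks had an Sd peak, beside 20.1% over the whole Yki list. By Sd peaks it ranked 4 among the 2356 stretches of 3R, a rank shared by 4 stretches. This stretch too was singled out after its values were seen, in an interval chosen with its Sd count known. Its main feature was the widest Yki peak of the interval, which held 3 of the 5 Sd peaks. That peak ran from 17473737 to 17477869 and was 4133 bp wide, with a score of 65.9. No other Yki peak of 3R was wider, and 1 in the whole list was. Inside it lay Sd peaks from 17473832 to 17474662 with a score of 11.7 and a width of 831 bp, from 17475487 to 17475855 with a score of 6.66, and from 17477558 to 17477777 with a score of 5.45 and a width of 220 bp, the narrowest Sd peak. The highest of the 3 Sd scores was at the left end of the Yki peak and the lowest at its right end. On 3R 3 Yki peaks held 3 or more Sd peaks, and in the whole list 17 did. Wider peaks can hold more Sd peaks by length alone.

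On either side of the wide peak were lesser sites. The Sd peak from 17471920 to 17472161 had a score of 9.21, rank 647 of 2557, but its Yki peak, from 17471664 to 17472151, had a score of 10.8, rank 9385 of 11679. At 3 of the 12 Sd peaks the percentile in the Sd list exceeded that of the Yki peak in its list, and the excess was greatest here, with 74.5 against 19.6. The count over all Sd peaks is not given, so 3 of 12 cannot be called particular to the interval. The Sd peak from 17482255 to 17482530 had a score of 4.71 and lay in a Yki peak of 1276 bp with a score of 35.7. All 4 Yki peaks wider than 1 kb held at least 1 Sd peak, beside 439 of 743 such peaks, or 59.1%, in the whole list. With 4 peaks the difference was not tested.

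The right end of the interval brought Pol II back. The Pol II peak from 17486634 to 17486916 had the lowest Pol II score of the interval, 3.63, on a Yki peak with a score of 30.9. The Pol II peak from 17488392 to 17488750 had a score of 27.3, on the Yki peak with the lowest score, 5.18, from 17488305 to 17488740. After the widest Yki-free gap between members, 8581 bp, the last site held the Yki peak from 17497322 to 17497905 with a score of 57.6, the Sd peak from 17497400 to 17497627 with a score of 5.53 and the Pol II peak from 17497206 to 17497576 with a score of 25.7. Outside the interval, the nearest Yki peak on the left ended 43.2 kb before its edge, at 17346775, and on the right the nearest began 7.89 kb beyond it, at 17507891. The nearest Sd peak on the right began 103.5 kb beyond the edge.

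Across the interval, Yki peaks with Sd were wider and scored higher than those without. Median width was 660 bp for the 9 with Sd and 377 bp for the 25 without, and median score was 41.2 against 16.3. Among the 10 Yki peaks of highest score, 8 had an Sd peak and 4 a Pol II peak. Over the whole Yki list 20.1% had an Sd peak and 54.3% a Pol II peak. Among the 2557 highest-scoring Yki peaks of the list, 52.0% had an Sd peak. These contrasts were not tested, since all Yki peaks came from 1 library and a wide peak meets more of any list. The 3 Yki peaks with both Sd and Pol II had scores of 41.2, 57.6 and 88.0. The 6 with Sd and without Pol II ranged from 10.8 to 65.9, with a median of 37.4. The 7 with Pol II and without Sd ranged from 5.18 to 35.3, with a median of 9.17. The 18 with neither ranged from 7.77 to 51.6, with a median of 16.7. On the rest of 3R the corresponding medians were 46.3, 34.6, 23.9 and 13.6, so the class with Pol II alone had a higher median score than the class with neither there and a lower one in the interval. That reversal rests on 7 peaks and was not tested.

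**Figure D4:**
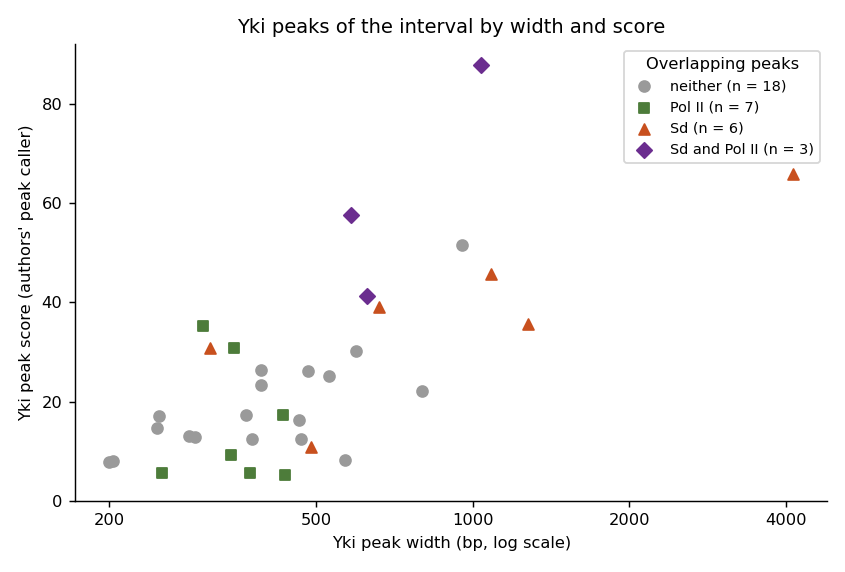
Score against width (log scale) of the 34 Yki peaks, with the marker showing which other lists overlap each peak. The 3 peaks with both Sd and Pol II have scores of at least 41.2, 5 of the 7 with Pol II alone lie below 20, and the 4 peaks wider than 1 kb all hold Sd.

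Seen over all members, the Yki peaks of the interval were numerous rather than high in score. Their median score of 19.7 stood at percentile 45.5 of the Yki list, and 17 of 34 lay above the list's median. The highest 10% of the list held 4 of them and the lowest 10% another 4. Sd members had a median score of 7.96, percentile 62.8, with 7 of 12 above the list's median and 2 in its highest 10%. Pol II members had a median score of 8.20, percentile 17.8, with 4 of 16 above the list's median. Median widths were 434 bp for Yki, 308 bp for Sd and 325.5 bp for Pol II, against 401, 259 and 412 bp on the rest of 3R.

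Spacing followed density. Centres of neighbouring Yki peaks were a median of 2203 bp apart (quartiles 1126 and 3896, from 603.5 to 9091 bp), against 4235 bp on the rest of 3R. Sd centres were a median of 4725 bp apart, from 519 to 19590 bp, against 26168 bp. Pol II centres were a median of 1793 bp apart against 2896.5 bp, and ranged from 298 to 38953 bp. The longest spacing was that across the first Pol II-free stretch, and 9 of the 16 peaks fell in 1 stretch of 10 kb. Sd members were also grouped: 4 of the 12 lay between 80 and 90 kb, where no Pol II peak was called. Counted in steps of 10 kb, Yki peaks numbered between 1 and 6 in each step after the first, which held none.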

How the data were processed

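ChIP-seq peak lists for Yki, Sd and Pol II, 1 library each, were analysed. The input DNA samples were not used here. The build dm3 and the tools Bowtie, MACS2 and CASAVA 1.8.2 are named per the submitters' processing notes; the other versions, the parameters, the control and the filters were not given in the sources used here. The score of each peak is the value the authors deposited; no header names its unit, and its lowest value was 2.00 in the Sd list and 3.01 in both others. Read depth is unknown, since the lists hold neither counts nor coverage.

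Coordinates are written 1-based. Peaks overlapped when they shared at least 1 bp. Windows had the interval's length; an incomplete window at either arm end was left out, and the arm was taken to end at its last peak. Percentiles rank scores within a list. Shares carry exact 95% intervals; with 1 library per antibody no test between conditions was made. The members, lists and comparisons were chosen with earlier results of these data known. Named peaks are all Sd peaks, the 10 Yki and 10 Pol II peaks of highest score, and the widest, narrowest, first and last of each list; others were chosen after their values were seen. Promoter motifs had been planned but were not run, because no sequence was used here. The tools were matplotlib 3.10.9, scipy 1.17.1, pandas 2.3.3, numpy 2.4.6 and Python 3.11.15, and counting was tested on simulated peaks.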

Additional observations from a re-analysis of the deposited data

How the results depend on the processing

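Counting peaks by their centre left all counts as they were. The interval ranked 1 for Yki and Sd peaks on a 100 kb grid and among windows with a peak. It also ranked 1 among windows sliding by 10 kb, from which those overlapping the interval were left out. The interval was picked with its counts known, so these ranks largely restate that choice. With only the upper 50% by score kept in every list it held 17 Yki, 7 Sd and 4 Pol II peaks, 11.8% of Yki peaks lay on Pol II, median widths were 597 bp for Yki, 475 bp for Sd and 574 bp for Pol II, and median spacings were 3660 bp for Yki, 10434 bp for Sd and 5912 bp for Pol II. Over the whole lists so reduced, 52.0% of Yki peaks lay on Pol II. With each list shortened to 2557 peaks it held 7 Yki and 2 Pol II peaks, 85.7% of Yki peaks had Sd, 14.3% had Pol II, and 8.33% of Sd peaks lay on Pol II. The whole lists so shortened gave 52.0, 32.2 and 18.8%. The Sd list is not shortened by this rule, and the Yki list keeps its highest scores. With peaks reduced to 200 bp, the shares on Yki were 58.3% for Sd and 37.5% for Pol II, against 75.9 and 33.8% over the whole lists. At this setting 17.6% of Yki peaks lay on Pol II, against 29.2% over the whole list, a smaller difference than with full peak widths. By bases covered the interval ranked 2 for Yki and 98 for Pol II. By Pol II peaks it ranked 447 of 2759 among those sliding windows, which overlap one another and count the same dense places repeatedly. An Sd score of at least 3, added after seeing the data, left the Sd share at 26.5%. No paired analysis was possible because there was a single library for each antibody. How read depth bears on these counts was not tested, since no depth is given.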

Other observations

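The Yki peaks of the interval could be joined into 1 run. With neighbours joined across gaps of up to 10 kb, a limit chosen after the values were seen, 35 Yki peaks joined into 1 run of 102.6 kb from 17405863 to 17508508, of which the last lay beyond the interval. Of 667 such runs on 3R it had the most peaks, and the median run had 3. The interval was selected on its number of Yki peaks, so this rank largely restates that choice. The last peak was joined across a gap of 9.985 kb, just under the limit. The run was bounded on the left by 59.1 kb without a Yki peak. After the Pol II peak that ends at 17346906, no Sd or Pol II peak was called up to the first members either. At the far side of this stretch the nearest Yki peak, from 17345906 to 17346775, overlapped the nearest peak of both other lists. These were Sd from 17345959 to 17346285 and Pol II from 17346539 to 17346906.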
